A study of Homo sapiens with 7 samples.

Results

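A set of 3 numbered regulatory regions on chromosome 22 (151_chr22, 237_chr22 and 1456_chr22) was targeted in a CRISPR interference (CRISPRi) screen of C4-2B prostate cancer cells grown as tumours in mice. Their guides were taken as all rows of the screen table whose region name ends in _chr22, which gave 15 guides, 5 for each region, of 466 guides against 95 regions. C4-2B is a castration-resistant human line derived from LNCaP cells. Its CRISPRi-ready form was transduced with a guide library, and every library of the series carries that same line and treatment. The labels give 6 libraries of genomic DNA from subcutaneous xenograft tumours at the end of the screen. They give 1 library from the cells after about 10 doublings in culture, so spread between cultures could not be measured. The tumour titles carry the codes RH1L, RH2L, RH3L, RH1R, RH2R and RH3R. Neither the number nor the letter is explained in the titles, so the 6 tumours may not be independent. The model is a single line growing under the skin, so neither a metastatic site nor another line was measured.

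In CRISPRi a guide RNA brings a catalytically dead Cas9 fused to a repressor to a chosen site, where it silences an enhancer or promoter without cutting the DNA. Cells in which a silenced element had supported growth contribute fewer copies of their guide to the tumour, and cells in which it had restrained growth contribute more. Guides differ widely in how well they silence, so several are directed at each region and their spread is part of the measurement. The published text of the study was not among the sources used here. It is said to describe an enhancer on chromosome 22 near SF3A1, a subunit of the U2 snRNP splicing machinery, and CCDC157, a coiled-coil protein. In RefSeq (GRCh38.p14) these protein-coding genes lie head to head on chromosome 22. SF3A1 spans 30331988 to 30356894 on the minus strand and CCDC157 spans 30356624 to 30378673 on the plus strand, so that their annotated starts are 270 bases apart and the 5′ ends overlap. No source used here ties a numbered region to these genes, so no target is named for any of the 3 regions, and guide sequences and region coordinates are not used here.

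The values are results of a logistic fit per guide made by the authors. The regions were selected on the estimates and scores of this same table. The values below are therefore a description, and the regions were not tested here. The estimate was read as the natural log of an odds ratio, since the file does not give its base. An odds ratio below 1 probably means that the guide was rarer in tumours than in the comparator, but the file defines neither the sign nor the libraries set against each other. Below, "lower" and "higher" refer to the sign of the estimate. The score is the authors' rescaled z score, on which 1 unit is 1 widened standard error, and 95% intervals use that widened error. The score also takes 0.0404 off the logit z score, which the intervals do not. An interval and the p-value of its score can therefore differ near the threshold. The table holds no values per library, so depth is unknown, the spread between tumours could not be measured, and intervals may leave it out. The 5 guides of a region share a target and are not replicates of a condition.

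Region 151_chr22 held the lowest guide of the whole table. Guide 156 (151_chr22_seq156) had an estimate of -1.54 and a score of -5.60 in the authors' deposited table, which corresponds to an odds ratio of 0.214 (95% interval 0.125 to 0.369). Its adjusted p-value in the authors' deposited table was 1.02e-05. It ranked 1 of 466 by score and by estimate, and the next lowest guide of the table, on another chromosome, scored -4.27. Before widening, the standard error of guide 156 was 0.205, above the median of 0.176 over all guides. Its widened error, used for the interval, was 0.277.

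The other guides of 151_chr22 fell into a lower pair and a pair near 1. Guide 155 had a score of -2.28 in the authors' deposited table and an odds ratio of 0.602 (0.387 to 0.937). Guide 159 had a score of -1.92 in the authors' deposited table and an odds ratio of 0.644 (0.409 to 1.02). Together with guide 156 these were the 3 lowest guides of the region, and the interval of guide 159 just reached 1. Odds ratios as low as those of the pair were not rare among all guides. By estimate, guide 155 ranked 46 and guide 159 ranked 70 of 466 from the lowest. Guide 157, with a score of -0.11 in the authors' deposited table, stood at an odds ratio of 0.983 (0.639 to 1.51). Guide 158, with a score of 0.33 in the authors' deposited table, stood at 1.09 (0.676 to 1.76) and was the only one above 1. In the authors' deposited table the adjusted p was 0.330 for guide 155, 0.379 for guide 159, 0.980 for guide 157 and 0.942 for guide 158. Guides against this single region thus covered a 5.10-fold range of odds ratios.

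The mean score of 151_chr22 was -1.92 ± 2.34 (SD over 5 guides), and its median was -1.92. The odds ratio of the mean estimate was 0.617. The region ranked 1 of 95 by mean score, 2 by mean estimate and 2 by median score, counted from the lowest. Its SD and its range of 5.93 score units were also the widest of the regions with more than 1 guide. Much of both came from guide 156, without which the mean was -0.995, the SD was 1.30 and the odds ratio of the mean estimate was 0.803. That mean would rank 24 of 95 among the other regions with all their guides. When every region was stripped of its lowest guide, 151_chr22 ranked 8 of 94.

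Region 1456_chr22 lay near the middle of the table, with 1 guide well below the rest. Guide 139 (1456_chr22_seq139) had an estimate of -0.65 and a score of -2.65 in the authors' deposited table, an odds ratio of 0.524 (0.323 to 0.850). Its adjusted p-value in the authors' deposited table was 0.221, although it ranked 16 of 466 by score. Guides 136, 137 and 138 stood closer to 1. The odds ratio of guide 136 was 0.824 (0.514 to 1.32), with a score of -0.84 in the authors' deposited table. That of guide 137 was 0.792 (0.499 to 1.26), with a score of -1.02 in the authors' deposited table. That of guide 138 was 0.921 (0.507 to 1.67), with a score of -0.30 in the authors' deposited table. All 3 intervals hold 1, as does that of the only guide above 1. Guide 135 had a score of 1.19 in the authors' deposited table and an odds ratio of 1.34 (0.835 to 2.16). In the authors' deposited table the adjusted p was 0.702 for guide 135, 0.833 for guide 136, 0.781 for guide 137 and 0.942 for guide 138.

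The mean score of 1456_chr22 was -0.72 ± 1.38 (SD over 5 guides), and the odds ratio of its mean estimate was 0.842. The region ranked 37 of 95 from the lowest, close to the median region mean of -0.62. Its mean was -0.24 without guide 139 and -1.20 without guide 135, so either extreme guide moved it by more than 1.5 times. The highest odds ratio in the region was 2.56 times the lowest.

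Region 237_chr22 contained the highest chromosome 22 guide. Guide 260 (237_chr22_seq260) had an estimate of 0.58 and a score of 2.07 in the authors' deposited table, an odds ratio of 1.79 (1.04 to 3.07). Only 2 guides of the table scored higher. Its unadjusted p-value was 0.038 and its adjusted p-value 0.341 in the authors' deposited table. The other 4 guides of the region were all below 1, with intervals that hold 1. Guide 259 had a score of -1.34 in the authors' deposited table and an odds ratio of 0.764 (0.512 to 1.14). Guide 258 had the lowest odds ratio of the region, 0.644 (0.244 to 1.70), but a score of only -0.92 in the authors' deposited table. This guide was the least precisely measured of the 15, with a standard error of 0.367 before widening, rank 453 of 466 from the smallest. Guide 257 stood at 0.927 (0.465 to 1.85) with a score of -0.24 in the authors' deposited table. Guide 256 was the best measured of the 15, with a standard error of 0.144 before widening. It lay at an odds ratio of 0.976 (0.667 to 1.43) with a score of -0.15 in the authors' deposited table. Its interval leaves room for a change of about the size seen for guide 259 and not for one the size of guide 156. In the authors' deposited table the adjusted p was 0.980 for guide 256, 0.960 for guide 257, 0.796 for guide 258 and 0.671 for guide 259.

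The mean score of 237_chr22 was -0.12 ± 1.32 (SD over 5 guides), with an odds ratio of 0.955 for the mean estimate and rank 81 of 95. The sign of this mean was not stable. It was 0.19 without guide 259, 0.08 without guide 258 and -0.67 without guide 260. The highest odds ratio in the region was 2.78 times the lowest. Guide 260 stood 0.651 of the region's range above its nearest neighbour, while the gap below guide 156 in 151_chr22 took up 0.560 of that region's range.

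Each of the 3 regions had 4 guides below 0 and 1 above. That pattern was the most common in the table, shown by 36 of the 89 regions with 5 guides (40.4%), and 13 had all 5 below 0. Counted over guides, 12 of 15 (80%) scored below 0, against 70.8% of all 466 guides and 70.5% of the 451 guides elsewhere. Most guides lay below the zero of the authors' scale, so a negative score alone does not set a member apart from the other guides. What that zero refers to is not given in the sources used here. Measured from the median of all guides, 8 of the 15 were lower and 7 higher.

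At an adjusted p of 0.05 in the authors' deposited table, 1 of the 15 guides was lower, where 1.29% of all guides were lower and 0 higher. At an unadjusted p of 0.05 in the authors' deposited table, guides 139, 155 and 156 were lower, 3 of 15 (20%), where 13.1% of all guides were. Guide 260 was the only one of the 15 that was higher at that level, where 0.644% of all guides were. The 95% intervals of 11 of the 15 guides (73.3%) held 1, against 87.8% of the guides elsewhere. With so few members, each of these gaps amounts to about 1 or 2 guides. With the authors' unscaled p-values, adjusted here by Benjamini-Hochberg over all 466 guides and without the widened error, the same 3 guides passed 0.05 as lower, where 10.1% of all guides did. Guide 260 passed as higher on that basis, where 0.644% of all guides did.

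The scores of the chromosome 22 guides spread widely, and much of the spread came from guide 156. Their median score was -0.84, against -0.65 for the guides elsewhere, and their mean was -0.92. Their SD was 1.79, against 1.07 elsewhere, and it ranked 1 of 19 chromosomes. Without guide 156 the mean was -0.59, the SD 1.29 and its rank 3. Chromosome 19, with 55 guides in 11 regions, had a median score of -0.66 and an SD of 1.05. Chromosome 16, with 50 guides in 10 regions, had a median of -0.68 and an SD of 1.07. Among the other chromosomes with 14 to 20 guides, SDs were 1.49 on chromosome 6, 1.48 on 17, 1.22 on 20, 0.97 on X and 0.86 on 9. Within-region SDs were 2.34, 1.38 and 1.32 on chromosome 22, against a median of 0.958 over the regions elsewhere, and ranked 1, 16 and 18 of 94. Before widening, the median standard error was 0.180, against 0.176 elsewhere, and 9 of the 15 guides lay above the median of all guides.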

How the data were processed

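A single table of guides was analysed. Libraries were made from genomic DNA and grouped by their titles into tumour endpoint (n = 6) and culture (n = 1), but the table has 0 columns of values per library. UMI-tools, cutadapt, Bowtie2, SAMtools and build hg38 are named per the submitters' processing notes. Not given in the sources used here are their roles and the design of the logistic fit. The authors deposited per guide an estimate (taken as a natural log odds ratio), a logit z score, its p-value, a rescaled score, and the p-value and adjusted p-value of that score. Recomputing the deposited columns left 0 guides off by more than 1e-12: the rescaled score is the logit z score less 0.0404, over 1.35, and the adjusted p-value is a Benjamini-Hochberg adjustment over the 466 guides. The standard error was taken as estimate over logit z score, and was widened 1.35 times for intervals (Python 3.11.15, pandas 2.3.3, scipy 1.17.1). On simulated data the standard errors and odds ratios were recovered by construction, and the widening was not tried. The Benjamini-Hochberg adjustment was checked there against another implementation. Every guide and region with a name ending in _chr22 was described. The members and lists were chosen with earlier results of these data known, and no test of the members as a set was run. As checks, the authors' p-values were readjusted, and median-centred scores were turned into normal p-values with Benjamini-Hochberg adjustment.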

Additional observations from a re-analysis of the deposited data

How the results depend on the processing

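The count of called chromosome 22 guides was 1 lower at adjusted p-values under 0.01 and 0.10, with Bonferroni correction and with scores centred on the median guide. With the authors' unscaled p-values (Benjamini-Hochberg adjusted over all guides) it became 3 lower and 1 higher; those p-values leave out the widening of the error. Centring left 8 of 12 guides below 0 and put the mean scores at -1.26 for 151_chr22, -0.07 for 1456_chr22 and 0.53 for 237_chr22, the last on the other side of 0. Without each guide in turn, the means ranged from -2.48 to -0.995, from -1.20 to -0.24 and from -0.67 to 0.19 in the same order. Region 151_chr22 ranked 2 by mean estimate and 2 by median score in place of 1, and ranking by the share of guides below 0 put all 3 regions at a tied 16. With the standard error implied by the deposited values, before widening, the interval of guide 159 was 0.460 to 0.903. No paired analysis, such as of L and R tumours sharing a number, was possible because values for single libraries were not in the table. Leaving out single tumours was not run for the same reason. The depth of the libraries is unknown.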
